A study of Bos taurus with 22 samples.

Results

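Secretory IgA of the gut is made by plasma cells in the lamina propria and carried into the lumen by the epithelium. The plasma cell joins IgA into dimers with the joining chain, and the polymeric immunoglobulin receptor on the basolateral face of enterocytes binds the dimer, moves it across the cell and releases it at the apical face with part of the receptor attached. The mRNA level of 9 genes of this route was followed in the jejunal mucosa of Holstein steers. They were taken by gene symbol from the deposited count table of 27570 genes, and all 9 were present. Plasma cell genes made up 8 of them, JCHAIN, MZB1, XBP1, TNFRSF17, IRF4, PRDM1, DERL3 and TXNDC5, and PIGR, which encodes the receptor, was the epithelial gene.

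Scraped jejunal mucosa of 22 Holstein steers was analysed by RNA sequencing after 7 d of treatment. All steers were infused into the abomasum with raw corn starch at 3.94 g per kg of body weight (BW) per day, together with water or with sodium caseinate at 1.30 g per kg of BW per day, and all received subcutaneous injections of bovine serum albumin (BSA) vehicle, alone or with glucagon-like peptide 2 (GLP-2), a gut peptide hormone that stimulates growth of the mucosa, at 100 µg per kg of BW per day. The treatments were control (water and BSA, n = 5), GLP-2 (water and GLP-2, n = 5), casein (casein and BSA, n = 6) and casein + GLP-2 (casein and GLP-2, n = 6), which gave 11 GLP-2 against 11 BSA steers for the injection and 12 casein against 10 water steers for the infusion. Further steers of the control and GLP-2 treatments were not analysed here. Per the study's methods, a control sample was not sequenced because of low RNA integrity. Integrity also varied among the sequenced samples, and its part in the levels was not tested. Steers had been placed in 6 blocks by body weight, and a replicate number is the number of the block.

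Libraries held 8809666 to 28447810 counted fragments (median 12028560.5), and the ranges of the GLP-2 and BSA steers overlapped. Levels are given as CPM, in which counts are divided by library sizes adjusted by the trimmed mean method, and as FPKM where genes are compared with each other, because FPKM is scaled by gene length. The tissue label was checked against marker genes. The 12 epithelial markers summed to 3822 to 46661 CPM per steer, whereas 16 markers of the B cell follicle, the lymphoid tissue that fills Peyer's patches, summed to 149 to 2759 CPM. A B cell follicle score, the mean log2 CPM of those 16 markers, lay above 5 in 4 BSA steers (casein replicate 3 and control replicates 1, 3 and 5, 5.94 to 6.78) and at or below 3.94 in the other 18 steers. These 4 follicle-rich scrapings stand apart from the rest, and calls between GLP-2 and BSA, as well as correlations, are also given without them.

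The genes spanned 3 orders of magnitude in level per length. PIGR had the highest median FPKM over the 22 steers (1561), followed by JCHAIN (464), XBP1 (180), TXNDC5 (41.2), DERL3 (12.2), MZB1 (10.4), PRDM1 (8.77), IRF4 (3.60) and TNFRSF17 (0.917). PIGR exceeded JCHAIN in 19 of 22 steers, JCHAIN exceeded XBP1 in 16, XBP1 exceeded TXNDC5 in 21 and TXNDC5 exceeded DERL3 in all 22. DERL3 and MZB1 could not be ordered, since DERL3 was the higher in 11 of 22 steers, and MZB1 exceeded PRDM1 in only 12. PRDM1 exceeded IRF4 in 19 steers, and IRF4 exceeded TNFRSF17 in 20. PIGR took 0.168 to 1.53% of all counts in a library, and JCHAIN took 0.00466 to 0.573%.

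JCHAIN encodes the joining chain that links IgA monomers into the dimer PIGR can bind (chromosome 6, 86033000 to 86042396, minus strand, ARS-UCD1.2). Its level was 62.1, 571, 1577, 1598 and 5106 CPM in the control steers and 167, 184, 1384, 1725, 1786 and 2966 CPM in the casein steers. The GLP-2 steers had 123, 293, 382, 701 and 1826 CPM, and the casein + GLP-2 steers had 49.2, 95.8, 250, 374, 576 and 747 CPM. Control replicate 2, at 62.1 CPM, was lower than all GLP-2 injected steers but 1, and only 2 of the 11 BSA steers lay above the highest GLP-2 steer, so the groups overlapped widely.

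MZB1 encodes an endoplasmic reticulum protein that helps to assemble and secrete immunoglobulin (chromosome 7, 50661348 to 50663428, minus strand). In the control steers it was at 3.00, 5.18, 26.8, 56.6 and 99.7 CPM, and in the casein steers at 2.16, 3.48, 19.5, 23.4, 37.7 and 59.2 CPM. GLP-2 steers were at 2.94, 6.18, 13.4, 16.3 and 42.5 CPM and casein + GLP-2 steers at 1.21, 1.42, 7.45, 8.02, 8.35 and 8.77 CPM. The casein + GLP-2 steers were all below 9 CPM, and 3 of the 11 BSA steers exceeded the highest GLP-2 injected steer, GLP-2 replicate 1.

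TNFRSF17 encodes BCMA, the receptor for APRIL and BAFF through which plasma cells survive (chromosome 25, 10675178 to 10679143, plus strand). It was the scarcest of the 9 genes, at 0.353, 1.80, 2.46, 5.49 and 18 CPM with control and 0.752, 1.06, 2.98, 3.83, 6.45 and 21.7 CPM with casein. With GLP-2 it was at 0.207, 0.992, 1.07, 1.23 and 4.63 CPM, and with casein + GLP-2 at 0.0866, 0.284, 0.798, 0.917, 1.62 and 1.65 CPM. Of the 11 BSA steers, 4 exceeded the highest GLP-2 injected steer, and 9 exceeded the median of the GLP-2 injected steers.

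DERL3 encodes a derlin that moves misfolded proteins out of the endoplasmic reticulum for degradation in secretory cells (chromosome 17, 71260779 to 71262858, minus strand). Its level was 2.65, 11.7, 29.3, 45.1 and 76.9 CPM in control steers and 7.39, 7.90, 21.2, 22.4, 31.0 and 37.6 CPM in casein steers. In GLP-2 steers it was 3.31, 7.86, 11.2, 11.3 and 16.9 CPM, and in casein + GLP-2 steers 1.99, 2.43, 5.41, 6.65, 9.13 and 10.4 CPM. DERL3 separated the injections best of the 9 genes, since 7 of 11 BSA steers were above the highest GLP-2 injected steer. The other 4 BSA steers were control replicates 2 and 4 and casein replicates 4 and 6.

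TXNDC5 encodes a protein disulfide isomerase, abundant in plasma cells but used by other secretory cells as well (chromosome 23, 47476520 to 47502237, plus strand). Control steers had 57.9, 131, 227, 298 and 592 CPM and casein steers 85.1, 127, 140, 174, 255 and 409 CPM. GLP-2 steers had 85.2, 114, 116, 140 and 203 CPM, and casein + GLP-2 steers 57.0, 58.8, 90.2, 94.1, 114 and 127 CPM. The highest GLP-2 injected steer, at 203 CPM, was exceeded by 5 of the 11 BSA steers.

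IRF4, PRDM1 and XBP1 encode transcription factors of plasma cell differentiation, and all 3 also act in other cells. IRF4 serves activated B and T cells (chromosome 23, 52201686 to 52218895, minus strand) and ranged from 9.44 to 58.8 CPM with control, 9.97 to 72.7 with casein, 7.48 to 32.2 with GLP-2 and 8.58 to 19.9 with casein + GLP-2. PRDM1 encodes Blimp-1, which is also made by T cells and enterocytes (chromosome 9, 43843907 to 43866544, minus strand), and it lay between 39.4 and 71.0 CPM in all 22 steers. XBP1, the transcription factor of the unfolded protein response (chromosome 17, 68052596 to 68056965, minus strand), lay between 134 and 347 CPM. The highest steer was therefore 1.80 times the lowest for PRDM1 and 2.58 times for XBP1, as against 104 times for JCHAIN, 82.2 for MZB1 and 38.7 for DERL3. Counts per gene do not separate the spliced from the unspliced form of XBP1 mRNA.

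PIGR (chromosome 16, 4712913 to 4731265, minus strand) was at 1796, 5845, 6097, 7033 and 9485 CPM in control steers and 3158, 10056, 10328, 10451, 11660 and 14012 CPM in casein steers. GLP-2 steers had 5386, 6467, 6881, 9114 and 9812 CPM, and casein + GLP-2 steers had 4153, 4664, 6636, 7292, 7397 and 13723 CPM. Only casein replicate 1 exceeded the highest GLP-2 injected steer. The lowest steers were control replicate 2, which was also the lowest BSA steer for JCHAIN, TNFRSF17, IRF4, DERL3 and TXNDC5, and casein replicate 3, which was not low for those genes.

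**Figure D1:**
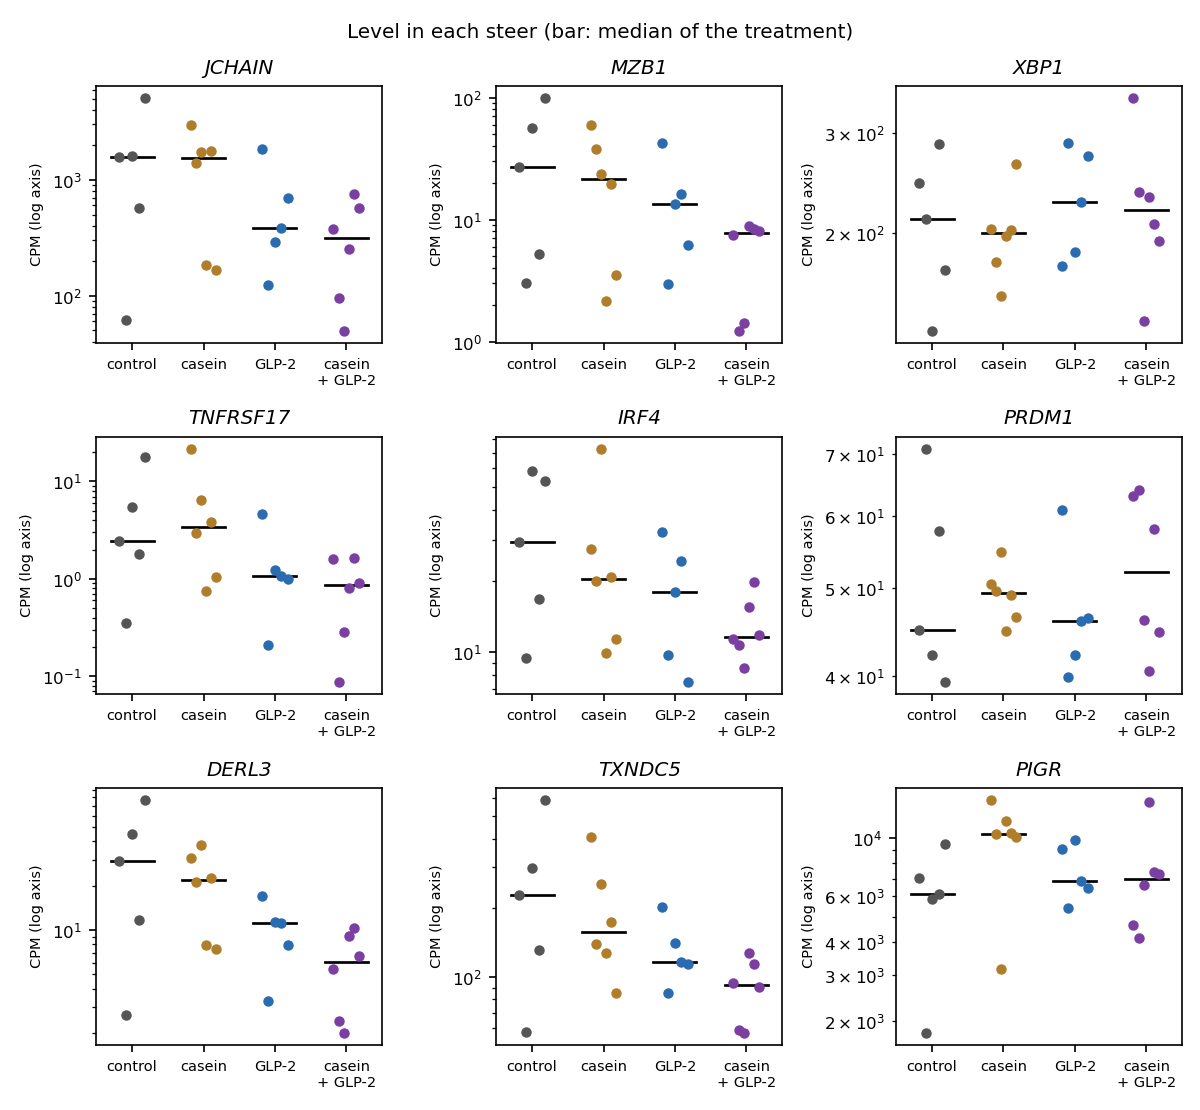
CPM of each gene in each steer on a log axis, by treatment, with a bar at the median of the treatment (control n = 5, casein n = 6, GLP-2 n = 5, casein + GLP-2 n = 6). JCHAIN runs from 49.2 to 5106 CPM over the 22 steers, whereas PRDM1 stays between 39.4 and 71.0 CPM. The highest values of JCHAIN, MZB1, TNFRSF17, DERL3 and TXNDC5 belong to control and casein steers.

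GLP-2 and BSA were compared over both infusions by edgeR's quasi-likelihood test on counts, with Benjamini-Hochberg adjustment over 13928 genes and an adjusted p of at most 0.05. GLP-2 lowered 3 of the 9 genes and raised none, in a comparison in which 8.37% of all genes tested were lower, 5.13% were higher and 13.5% passed in either direction. The split of all calls depended on the fit, with 1166 genes lower and 715 higher in the edgeR test, 338 and 351 (689 in all) with the block of each steer as a factor, and 882 and 1210 in limma on log2(FPKM + 1). DERL3 was 3.44-fold lower (log2 fold change -1.78 ± 0.45 SE, adjusted p = 0.0226). TNFRSF17 was 4.85-fold lower (log2 fold change -2.28 ± 0.65 SE, adjusted p = 0.0292), and TXNDC5 was 2.10-fold lower (-1.07 ± 0.32 SE, adjusted p = 0.0324). Fewer cells of a type and less RNA of the gene per cell cannot be told apart in RNA of whole mucosa.

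A further 3 genes tended to be lower, with an adjusted p above 0.05 and up to 0.1 in edgeR, a limit that 14.2% of all genes passed in the lower direction. JCHAIN had a log2 fold change of -1.69 ± 0.62 SE (adjusted p = 0.0653), MZB1 of -1.56 ± 0.62 SE (adjusted p = 0.0856) and IRF4 of -0.98 ± 0.35 SE (adjusted p = 0.0582). The DESeq2 Wald test called JCHAIN (adjusted p = 0.0312) and IRF4 (0.0284) lower, in a fit that called 1724 of 13928 genes lower. With the block as a factor in edgeR the tendency was lost for MZB1 (adjusted p = 0.176) and IRF4 (0.113) and held for JCHAIN (0.0709). Without adjustment, these 6 genes had p of at most 0.05 and a lower level with GLP-2, as did 18.1% of all genes. The median log2 fold change of the 9 genes was -1.07, beside 0.0079 for all genes tested.

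PIGR, PRDM1 and XBP1 did not pass. The log2 fold change was -0.14 ± 0.28 SE for PIGR (edgeR, adjusted p = 0.734), 0.17 ± 0.16 SE for XBP1 (adjusted p = 0.465) and 0.0071 ± 0.12 SE for PRDM1 (adjusted p = 0.972). The mean of PIGR was 8175 ± 3717 CPM (SD, n = 11) with BSA and 7411 ± 2694 CPM (SD, n = 11) with GLP-2, so the difference was smaller than the spread between steers of an injection.

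The calls of TNFRSF17 and TXNDC5 were lost in some fits without 1 steer, and that of DERL3 was not. DERL3 passed in all 22 fits that left out 1 steer (edgeR, adjusted p from 0.00668 to 0.0464). TNFRSF17 missed the threshold without casein replicate 1 (adjusted p = 0.0617), control replicate 5 (0.0566), casein + GLP-2 replicate 3 (0.0555), GLP-2 replicate 3 (0.0505) or GLP-2 replicate 6 (0.0507). TXNDC5 missed it without control replicate 5 (adjusted p = 0.0656), casein + GLP-2 replicate 3 (0.0624), control replicate 3 (0.0613), casein replicate 1 (0.0598), GLP-2 replicate 3 (0.0573), control replicate 1 (0.0538), GLP-2 replicate 6 (0.0530), casein + GLP-2 replicate 2 (0.0522) or casein + GLP-2 replicate 1 (0.0517). In the fits where TNFRSF17 or TXNDC5 missed the threshold, 3.14 to 5.45% of all genes were called lower, against 8.37% with 22 steers. The log2 fold change there was -2.25 to -1.84 for TNFRSF17 and -1.09 to -0.84 for TXNDC5. With the block of each steer as a further factor in edgeR, TXNDC5 had an adjusted p of 0.0509, while DERL3 and TNFRSF17 still passed (both adjusted p = 0.0482).

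The genes with a tendency passed in some fits without 1 steer, in which the share of all genes called lower also rose. Without control replicate 2, edgeR called 6 of the 9 genes lower, in a fit that called 13% of all genes lower (8.37% with 22 steers), with an adjusted p of 0.0272 for JCHAIN, 0.0262 for IRF4 and 0.0448 for MZB1. Without GLP-2 replicate 1, which had the highest level of JCHAIN, MZB1, TNFRSF17, IRF4, DERL3 and TXNDC5 among the GLP-2 injected steers, 6 genes were also called, as were 10.1% of all genes in the lower direction (adjusted p = 0.0282 for JCHAIN, 0.0337 for IRF4 and 0.0304 for MZB1). JCHAIN and IRF4 also passed without casein replicate 4 (0.0433 and 0.0354) or casein replicate 6 (0.0386 and 0.0333), and IRF4 without control replicate 4 (0.0435) or GLP-2 replicate 5 (0.0453). Those fits called 10.7, 11.4, 11 and 9.96% of all genes lower, in that order.

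The lower level of DERL3, TNFRSF17 and TXNDC5 went together with a lower level of follicle genes. Of the 16 B cell follicle markers, 14 were tested between GLP-2 and BSA, and 12 were lower (9 with the block, and none without the 4 follicle-rich steers, where 5 had an unadjusted p of at most 0.05) and none higher by the edgeR test, with a median log2 fold change of -2.82. Summed over all 16, they reached 193 to 2759 CPM in BSA steers and 149 to 227 CPM in GLP-2 steers. All 16 markers were above 1 CPM in at least 1 steer. With the follicle score of each steer as a covariate, edgeR called none of the 9 genes and none of 13928 genes (373 at an unadjusted p of at most 0.05), and the log2 fold change was -0.21 ± 0.41 SE for DERL3, -1.0 ± 0.80 SE for TNFRSF17 and -0.08 ± 0.32 SE for TXNDC5.

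The 4 BSA steers with a follicle score above 5 were then left out, which set 11 GLP-2 steers against 7 BSA steers. By edgeR's test none of the 9 genes and none of 14285 genes passed after adjustment, and the unadjusted p was 0.05 or less for 2 of the 9 genes and for 1927 genes in all. The direction stayed at a smaller size for TNFRSF17, JCHAIN, DERL3, MZB1 and TXNDC5. The log2 fold change was -1.94 ± 0.72 SE for TNFRSF17 (adjusted p = 0.320), -1.07 ± 0.68 SE for JCHAIN (0.457), -0.94 ± 0.43 SE for DERL3 (0.362), -0.85 ± 0.68 SE for MZB1 (0.546) and -0.57 ± 0.31 SE for TXNDC5 (0.394). IRF4, by contrast, was at -0.12 ± 0.29 SE (adjusted p = 0.859), and PIGR at -0.32 ± 0.31 SE (0.608). Both this fit and the covariate were chosen after the scores were seen. All 4 steers left out were BSA steers, and no GLP-2 injected steer had a score above 2.84. The score was thus tied to the injection, so neither fit can separate follicle tissue from GLP-2. The part of follicle tissue in the 22-steer result was not tested.

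**Figure D2:**
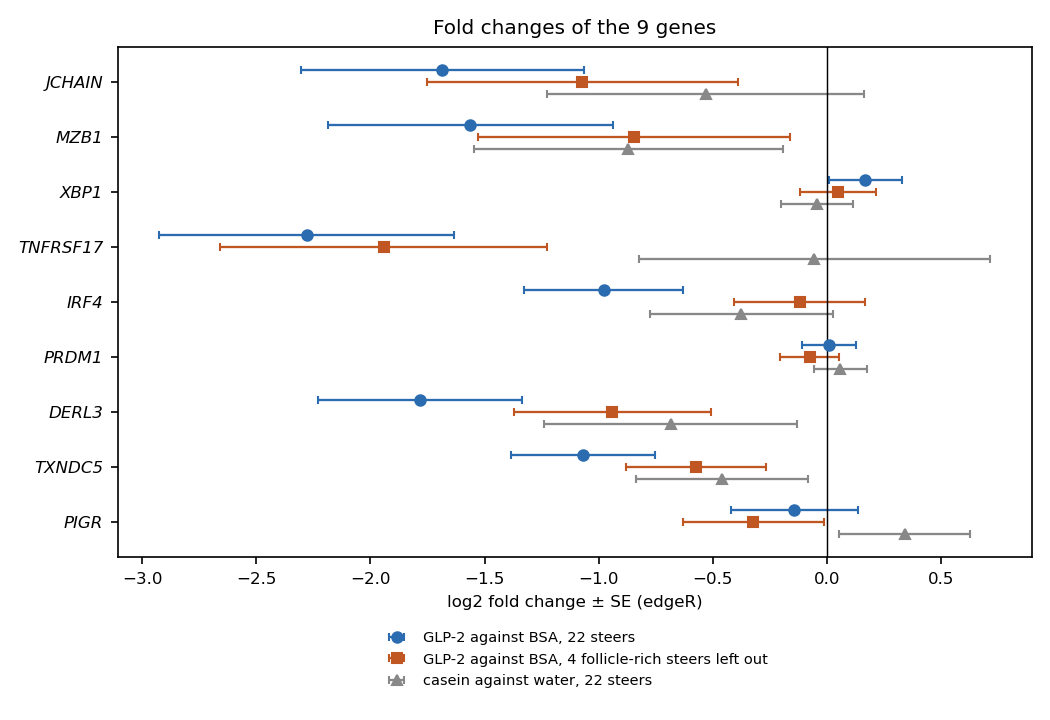
Log2 fold change ± SE from edgeR for each gene between GLP-2 and BSA in 22 steers (circles), between GLP-2 and BSA without the 4 BSA steers whose follicle score is above 5 (squares), and between casein and water in 22 steers (triangles). TNFRSF17 and DERL3 are farthest below 0 in 22 steers, at -2.28 and -1.78, and IRF4 moves from -0.98 to -0.12 when the 4 steers are left out.

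Over the 22 steers the genes fell into a set that moved together and a remainder that did not. The log2 CPM of JCHAIN correlated with that of DERL3 (Pearson r = 0.930, Spearman rho = 0.884), TNFRSF17 (r = 0.922, rho = 0.925), MZB1 (r = 0.915, rho = 0.896), TXNDC5 (r = 0.898, rho = 0.869) and IRF4 (r = 0.781, rho = 0.823). The permutation p was 1e-05 for all but IRF4, the smallest that 100000 resamples can give, and 3e-05 for IRF4, and the adjusted p over the 26 relations computed was at most 7.1e-05 for r. Within injections the same r values were 0.870 and 0.962 for DERL3, 0.888 and 0.927 for TNFRSF17, 0.856 and 0.929 for MZB1, 0.828 and 0.915 for TXNDC5 and 0.580 and 0.817 for IRF4, in GLP-2 and BSA steers in that order. Within the BSA steers all of these relations passed for r and rho. Within the GLP-2 steers that of IRF4 did not pass for r (adjusted permutation p = 0.16). By rho only TNFRSF17 passed there (0.809, adjusted permutation p = 0.034). The other rho values lay from 0.536 for IRF4 to 0.709 for DERL3 (adjusted permutation p from 0.068 to 0.13). Leaving out the 2 steers farthest from the median of JCHAIN, control replicate 2 and casein + GLP-2 replicate 3, gave r from 0.753 for IRF4 to 0.927 for TNFRSF17. Within the 18 steers with a follicle score of at most 5, r was 0.916 for DERL3, 0.897 for TNFRSF17, 0.886 for MZB1, 0.863 for TXNDC5 and 0.737 for IRF4.

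PIGR, XBP1 and PRDM1 did not correlate with JCHAIN at an adjusted permutation p of at most 0.05 over the 22 steers. PIGR correlated with JCHAIN at r = 0.359 (rho = 0.305, permutation p = 0.10 and 0.17), and at r = 0.160 without the 2 farthest steers. Within the 18 steers with a follicle score of at most 5 its r was 0.547 and rho 0.478 (adjusted permutation p = 0.026 and 0.059), so this relation passed for r in that subset, which was chosen after the scores were seen. For XBP1 r was -0.254 (rho = -0.377, permutation p = 0.25 and 0.084) and -0.540 without those steers, where the relation passed (rho = -0.583, adjusted permutation p = 0.020 and 0.012), but -0.054 within the 18 steers of low follicle score. For PRDM1 r was -0.160 (rho = -0.045, permutation p = 0.48 and 0.85) and -0.016 without the 2 farthest steers. Within the GLP-2 steers XBP1 and PRDM1 had the other sign, at r = 0.090 and 0.266.

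The steers fall into separate clusters on the follicle score, so relations with it are given within the 18 steers at or below 5. There the score correlated with DERL3 (r = 0.727, rho = 0.831, adjusted permutation p = 0.0024 and 0.00042), TNFRSF17 (r = 0.672, rho = 0.775), IRF4 (r = 0.659, rho = 0.825), JCHAIN (r = 0.646, rho = 0.655), TXNDC5 (r = 0.635, rho = 0.657) and MZB1 (r = 0.521, rho = 0.637), with adjusted permutation p up to 0.039 for r and 0.0097 for rho. PIGR had r = 0.366 and rho = 0.529 (adjusted permutation p = 0.17 and 0.033), XBP1 had r = 0.020 and PRDM1 had r = 0.158. Within the 11 GLP-2 steers only the relation of IRF4 passed for r (r = 0.730, adjusted permutation p = 0.046), while those of IRF4, DERL3 and MZB1 passed for rho (0.936, 0.782 and 0.782). The values of a steer share a library, so a larger share of 1 tissue lowers the CPM of the others.

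The epithelial score, the mean log2 CPM of the 12 epithelial markers, ran the other way. Over 22 steers it correlated with IRF4 at r = -0.855, TXNDC5 at -0.815, DERL3 at -0.800, TNFRSF17 at -0.779, MZB1 at -0.725 and JCHAIN at -0.683 (rho from -0.842 to -0.733, adjusted permutation p up to 0.00076 for r). XBP1 correlated positively with the epithelial score over 22 steers, with r = 0.623 and rho = 0.624 (adjusted permutation p = 0.0024 and 0.0033), and r was 0.623 within GLP-2 steers, 0.704 within BSA steers and 0.605 without casein replicate 3 and control replicate 5. Within the 18 steers of low follicle score it was 0.495 (rho = 0.540, adjusted permutation p = 0.051 and 0.031), which did not pass for r. PIGR, although an epithelial gene, had r = -0.102 and rho = -0.328 (permutation p = 0.65 and 0.14) and r = -0.622 within GLP-2 steers against 0.012 within BSA steers. Its rho passed within GLP-2 steers (-0.782, adjusted permutation p = 0.034), without the 2 farthest steers (-0.495, 0.035) and within the 18 steers of low follicle score (-0.659, 0.0072), while its r did not pass in any of these. For the 6 genes r lay from -0.770 for IRF4 to -0.595 for JCHAIN without the 2 farthest steers, from -0.867 for IRF4 to -0.702 for JCHAIN within BSA steers and from -0.681 for TNFRSF17 to -0.553 for JCHAIN within the 18 steers of low follicle score. Within GLP-2 steers it lay from -0.703 for IRF4 (adjusted permutation p = 0.072) to -0.360 for TNFRSF17, and none of the 6 relations passed there, nor did that of XBP1 (adjusted permutation p = 0.12).

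**Figure D3:**
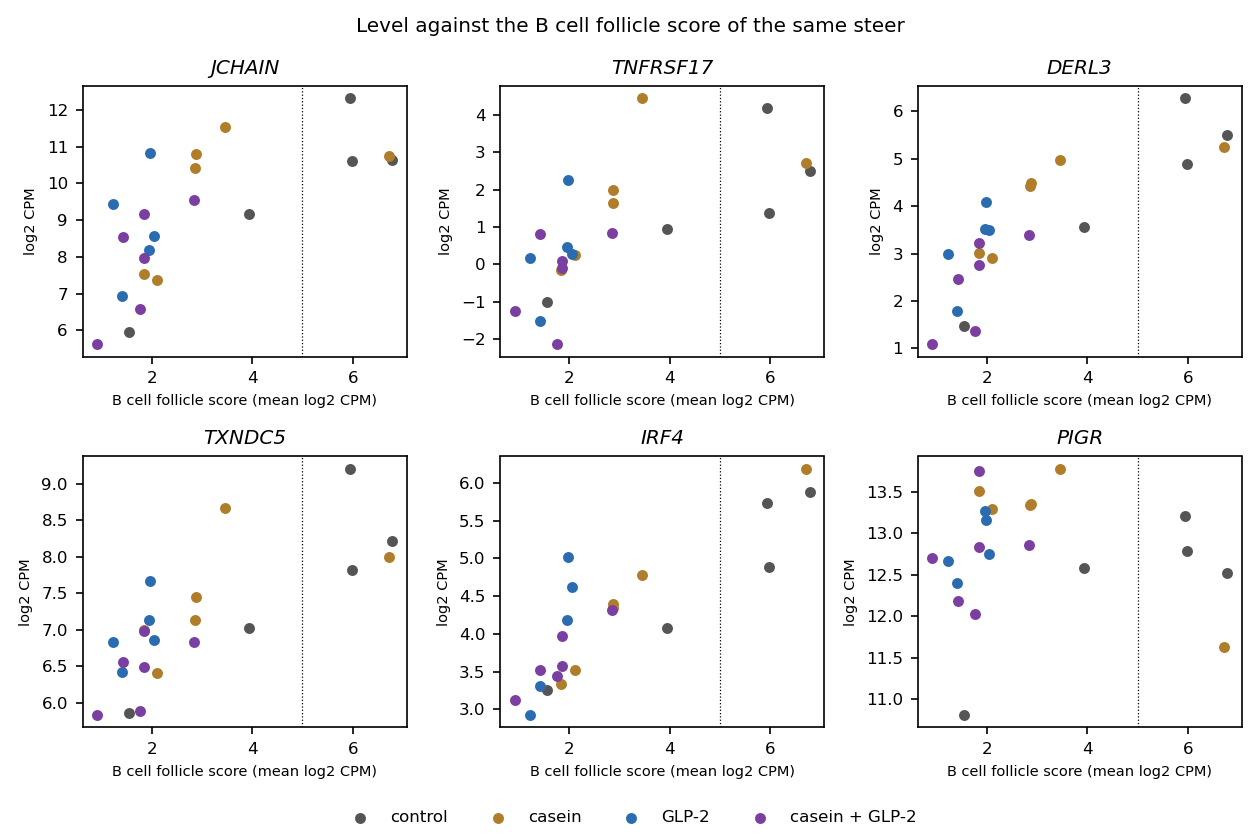
Log2 CPM of 6 genes against the B cell follicle score (mean log2 CPM of 16 markers) of the same steer, coloured by treatment, with a dotted line at a score of 5. The 4 steers to the right of the line are control and casein steers with scores from 5.94 to 6.78, all GLP-2 injected steers lie at or below 2.84, and the lowest 2 points of PIGR are control replicate 2 and casein replicate 3.

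Genes whose profile over the 22 steers was most like that of 3 of the genes were searched among 13246 genes with a symbol, as a description. For JCHAIN they were DERL3, TNFRSF17 and MZB1, followed by EPB41L4A (r = 0.914) and CXCL12 (r = 0.912), the chemokine that binds CXCR4. For TNFRSF17 they were TXNDC5 (r = 0.933), JCHAIN, DERL3, MZB1 and RCN1 (r = 0.907), a calcium-binding protein of the endoplasmic reticulum. For PIGR they were KCNN4 (r = 0.938), which encodes a calcium-activated potassium channel, PIGZ (0.860), FAM83E (0.843), TMEM246 (0.824) and C6 (0.824), and none of the plasma cell genes was among them.

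Other genes of plasma cells were counted by list. Of 23 further plasma cell genes tested, GLP-2 lowered 3 and raised 1 by edgeR, with a median log2 fold change of -0.30, beside 8.37% lower and 5.13% higher of all genes tested. The block left 2 of these calls, POU2AF1 and CD27, and leaving out the 4 follicle-rich steers left none (6 at an unadjusted p of at most 0.05, median -0.14). Without those steers the log2 fold change was -1.65 ± 0.61 SE for POU2AF1, -0.58 ± 0.20 SE for CD27, -1.14 ± 0.61 SE for CCR10 and 0.63 ± 0.31 SE for LMAN1 (edgeR, adjusted p from 0.320 to 0.394), and the values that follow are of 22 steers. POU2AF1, the coactivator OCA-B of B cells and plasma cells, was 5.09 CPM at the median of GLP-2 steers and 23.8 CPM at that of BSA steers (log2 fold change -4.0 ± 0.79 SE, adjusted p = 0.0189). CD27 had a log2 fold change of -1.34 ± 0.29 SE (adjusted p = 0.0189), and CCR10, the receptor that guides IgA plasma cells to mucosal CCL28, of -2.03 ± 0.64 SE (adjusted p = 0.0394). LMAN1, a lectin that carries glycoproteins from the endoplasmic reticulum in many cell types, rose by 0.95 ± 0.30 SE (adjusted p = 0.0385). SDC1, which encodes the plasma cell marker CD138 and is also made by epithelium, had a log2 fold change of 0.19 ± 0.18 SE.

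Signals that induce IgA and draw plasma cells to the gut included 5 lower and no higher genes among 16 tested, with a median of -0.24. With the block TNFRSF13C alone passed, and without the 4 follicle-rich steers none did (2 at an unadjusted p of at most 0.05), at a log2 fold change of -1.37 ± 0.53 SE for TNFRSF13C and -2.86 ± 1.05 SE for MADCAM1. TNFRSF13C, the BAFF receptor of B cells, had a log2 fold change of -4.69 ± 0.87 SE (edgeR, adjusted p = 0.0171), and MADCAM1, the vessel adhesion molecule that binds gut-homing lymphocytes, of -3.12 ± 0.95 SE (adjusted p = 0.0355). TNFSF13B, which encodes BAFF, was at -0.91 ± 0.29 SE, and TGFB1 was lower as well. CCL25, the epithelial chemokine of the small intestine, did not pass (0.54 ± 0.24 SE, adjusted p = 0.115), and CCL28 was at 0.13 ± 0.48 SE. IL5, IL6 and IL21 were too low to be tested between GLP-2 and BSA.

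Genes of protein folding in the endoplasmic reticulum showed little of this. Of 24 tested, 1 was higher with GLP-2 (EDEM1, 0.70 ± 0.22 SE, edgeR adjusted p = 0.0424) and 1 lower (SYVN1, -0.46 ± 0.13 SE, adjusted p = 0.0257), and the median was 0.086. SYVN1 missed the threshold with the block (adjusted p = 0.0510). HSPA5, the chaperone BiP, was at -0.10 ± 0.21 SE with 576 ± 208 CPM (SD, n = 11) in GLP-2 and 621 ± 215 CPM (SD, n = 11) in BSA steers. The machinery of epithelial transcytosis had 2 higher genes and no lower one among 10, with a median of 0.24. These were the kinase YES1 (0.77 ± 0.18 SE, adjusted p = 0.0216) and the vesicle motor MYO5B (0.99 ± 0.24 SE, adjusted p = 0.0218), which also passed with the block. Neither list held a call without the 4 follicle-rich steers (4 folding and 2 transcytosis genes at an unadjusted p of at most 0.05).

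Markers of other cell types that a scraping can hold were counted too, beside 8.37% lower and 5.13% higher of all genes tested. The germinal center list departed most from these shares, while the T cell, macrophage, goblet cell and smooth muscle lists held at most 1 call each. Of 8 germinal center genes 7 were lower by edgeR (3 with the block, and none without the 4 follicle-rich steers, where 3 had an unadjusted p of at most 0.05 and the median was -0.14), with a median of -1.84 and summed levels of 40.2 to 479 CPM in BSA and 31.9 to 64.4 CPM in GLP-2 steers. Of 12 T cell genes 1 was lower, CD5, with a median of -0.11, and the summed level was 762 to 2866 CPM with BSA and 1050 to 2229 CPM with GLP-2. Among 9 macrophage and dendritic cell genes MRC1 was higher (median 0.31), among 12 epithelial genes CLDN7, CDH1 and EPCAM were higher (median 0.66), and among 7 goblet cell genes CREB3L1 was higher (median 0.15). None of 8 smooth muscle genes passed (3 at an unadjusted p of at most 0.05), although all 8 had a negative log2 fold change with a median of -1.21, and their summed level was 31.3 to 1446 CPM with BSA and 31.9 to 805 CPM with GLP-2. MRC1 and EPCAM missed the threshold with the block (adjusted p = 0.0509 and 0.0637), and no gene of these lists passed without the 4 follicle-rich steers. The smooth muscle score, the mean log2 CPM of the 8 genes, was highest in control replicate 5 (7.00) and lowest in casein + GLP-2 replicate 3 (1.22). These steers also had the highest and lowest JCHAIN (5106 and 49.2 CPM). Control replicate 2 was lowest of the BSA steers on both (1.33 and 62.1 CPM). Not all steers kept this order, as control replicate 1 had a score of 2.62 with 1577 CPM of JCHAIN. A relation with this score was not tested. The part of these cell type markers in the results of the plasma cell genes was not tested.

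**Figure D4:**
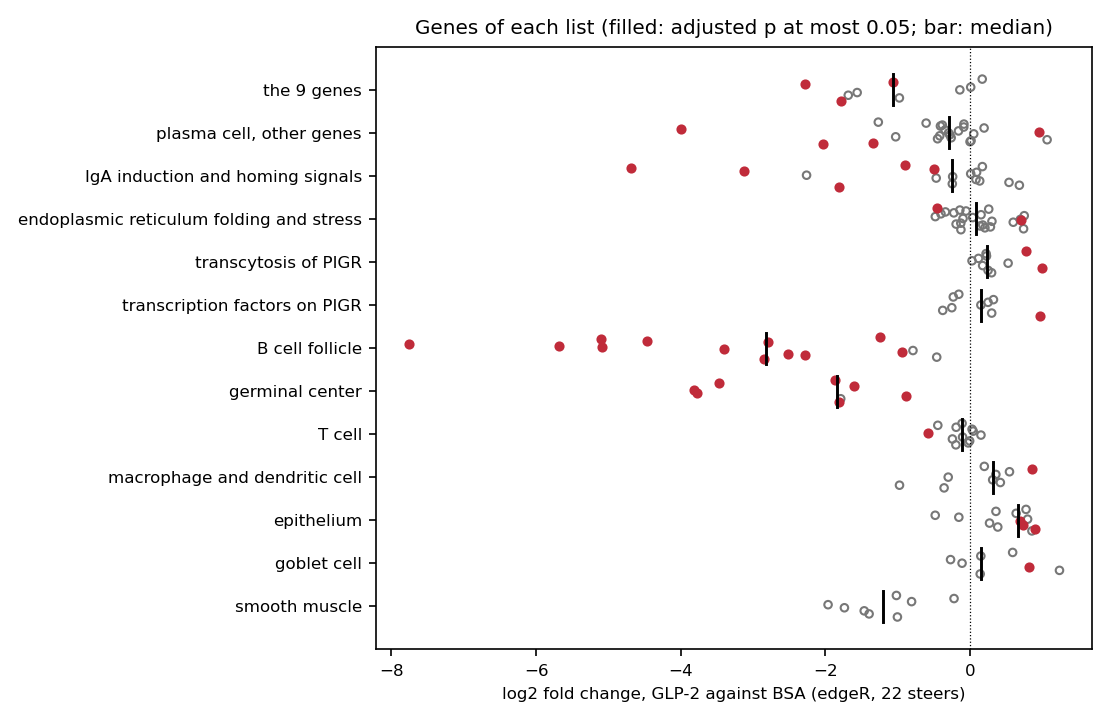
Log2 fold change between GLP-2 and BSA (edgeR, 22 steers) of each tested gene of each list, with filled points where the adjusted p was 0.05 or less and a bar at the median of the list. The lists of the B cell follicle and germinal center lie farthest below 0, with medians of -2.82 and -1.84, and the median of the 9 genes is -1.07.

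Immunoglobulin genes carry no symbol in the table, and 3 genes have an immunoglobulin biotype. The 1 of them with enough counts was the constant region gene ENSBTAG00000017305 (chromosome 17, 71131053 to 71166047), which was at 4.00 to 698 CPM (median 216) in GLP-2 steers and 27.3 to 5714 CPM (median 714) in BSA steers, a log2 fold change of -2.54 ± 0.78 SE (edgeR, adjusted p = 0.0368). It missed the threshold with the block (adjusted p = 0.0835) and without the 4 follicle-rich steers (-1.29 ± 0.78 SE, adjusted p = 0.435). Another 32 genes without a symbol carry the C1-set domain that immunoglobulin constant regions share with other proteins. Of all 35 such genes 22 were tested and 8 had r of at least 0.8 with JCHAIN, a limit set after the data were seen, so they are described without a test. The most abundant of the 8 was ENSBTAG00000047700 (chromosome 20, 71943352 to 71965884, r = 0.972), at 118 to 4693 CPM in GLP-2 steers and 173 to 33168 CPM in BSA steers, where it reached 3.72% of a library. ENSBTAG00000001219 (chromosome 21, 67102 to 78036, r = 0.846) ranged from 94.4 to 627 CPM with GLP-2 and from 163 to 1804 CPM with BSA, and ENSBTAG00000003408 (chromosome 11, 47233511 to 47305610, r = 0.932) from 11.2 to 490 CPM and from 15.9 to 1420 CPM. Genes of 1 immunoglobulin locus can share reads, so the split between them is uncertain.

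Casein and water were compared to ask whether added postruminal protein altered the same genes. By edgeR none of the 9 genes passed, in a comparison in which 0% of 14096 genes passed after adjustment, and none reached 0.05 without adjustment either, as 3.36% of all genes did. The DESeq2 Wald test called 5 of all genes and none of the 9. The log2 fold change was -0.87 ± 0.68 SE for MZB1, -0.69 ± 0.55 SE for DERL3, -0.53 ± 0.69 SE for JCHAIN, -0.46 ± 0.38 SE for TXNDC5, -0.38 ± 0.40 SE for IRF4 and -0.06 ± 0.77 SE for TNFRSF17. PIGR was at 0.34 ± 0.29 SE, with a mean of 8627 ± 3635 CPM (SD, n = 12) with casein and 6791 ± 2363 CPM (SD, n = 10) with water. XBP1 and PRDM1 were at -0.04 ± 0.16 SE and 0.06 ± 0.12 SE, and the adjusted p was 0.994 or more for all 9 genes. None of the other lists held a gene that passed.

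Single treatments were then contrasted in 1 edgeR model over all 4 groups and 15086 genes. After adjustment 0% of genes and none of the 9 passed for GLP-2 against control, casein + GLP-2 against casein, casein against control, casein + GLP-2 against GLP-2 or the interaction. At an unadjusted p of at most 0.05 edgeR had 2103, 3637, 854, 398 and 645 genes in these contrasts in that order, and DESeq2 called 285, 856, 10, 5 and 2 genes after adjustment. Without adjustment, casein + GLP-2 was lower than casein for 6 of the 9 genes, as for 14.2% of all genes, with log2 fold changes of -2.76 ± 0.93 SE for TNFRSF17, -2.05 ± 0.84 SE for MZB1, -1.97 ± 0.86 SE for JCHAIN, -1.83 ± 0.60 SE for DERL3, -1.14 ± 0.42 SE for TXNDC5 and -1.06 ± 0.48 SE for IRF4 (adjusted p from 0.123 to 0.186). That count was 2 without casein replicate 1, a fit in which 9.1% of all genes were lower. It was 4 with the block (1615 of 15086 genes lower) and 3 in limma (1661 genes lower with log2(FPKM + 1)). GLP-2 was lower than control for 2 genes, as for 8.35% of all genes, with -1.72 ± 0.65 SE for DERL3 and -0.99 ± 0.46 SE for TXNDC5 (adjusted p = 0.265 and 0.341). Here the count was 6 without GLP-2 replicate 1 (9.37% of all genes lower), 5 without control replicate 2 (13.5%) and 0 without control replicate 5 (7.25%). It was 1 without control replicate 3 (5.11%) or GLP-2 replicate 3 (6.75%), 4 (8.42%), 5 (8.85%) or 6 (6.6%). The block gave 1 (926 of all genes lower), and limma gave 0 (1130 lower with log2(FPKM + 1)). Without control replicate 2, 429 of all genes also passed after adjustment, and none of the 9. The DESeq2 Wald test called 2 genes between casein + GLP-2 and casein, TNFRSF17 (adjusted p = 0.0337) and DERL3 (0.0378), and none between GLP-2 and control, where DESeq2 gave no adjusted p for TNFRSF17.

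Whether the effect of GLP-2 differed between the infusions was not detectable in steers of this number. The interaction had a log2 value of -0.97 ± 1.29 SE for TNFRSF17, -0.81 ± 1.20 SE for MZB1, -0.55 ± 1.23 SE for JCHAIN, -0.11 ± 0.86 SE for DERL3 and -0.76 ± 0.56 SE for PIGR, with an unadjusted p of 0.190 or more for all 9 genes (edgeR). For PIGR the contrasts within infusions were 0.32 ± 0.42 SE for GLP-2 against control and -0.44 ± 0.38 SE for casein + GLP-2 against casein. Casein against control was 0.72 ± 0.40 SE for PIGR (unadjusted p = 0.0884, adjusted p = 0.903 in edgeR), which was the smallest unadjusted p of the 9 genes in that contrast.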

How the data were processed

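Per the labels and the study's methods, scraped jejunal mucosa of 22 steers was used for strand-specific poly-A RNA sequencing, and the authors aligned reads with HISAT2 (version 2.0.5) to ARS-UCD1.2, assembled them with StringTie (1.3.3b) and assigned them to genes with featureCounts (1.5.0-p3). Whether counting used the strand is not given in the sources used here. The deposited raw counts were used for tests. The authors also deposited FPKM values, which were used for levels between genes and as an alternative.

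Genes were filtered by filterByExpr (minimum count 10), and counts were normalised by TMM and compared by edgeR (4.0.16, R 4.3.3) as quasi-likelihood tests with Benjamini-Hochberg adjustment. An adjusted p of at most 0.05 was taken as significant and up to 0.1 as a tendency. SE is the log2 fold change divided by the root of the F statistic, and log2 CPM used a prior count of 2. The procedure was tested on simulated counts, which held no follicle-rich steers and so do not bear on the part of those steers in the calls. Correlations used 2-sided permutation tests (100000 resamples, scipy 1.17.1). Of a list, at most the 4 significant genes with the smallest p were to be named, so SDC1, CCL25, CCL28 and HSPA5, named for their known role, and TGFB1 fall outside that rule.

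Alternatives were DESeq2 size factors, no filter, the DESeq2 (1.42.0) Wald test, limma (3.58.1) on log2(FPKM + 1) or log2(FPKM + 0.1), the block, and leaving out each steer. Steers were blocked by body weight and randomised within block, so numbers pair steers by design, and after removing treatment means the mean correlation was 0.0331 over 30 pairs within a block and -0.00641 over 151 pairs across blocks. No pair of libraries was identical (0 pairs). Genes and lists were chosen with earlier results of these data known. Some results of the gene lists are not reported here. The deposited tables give no sequence, so none is shown, and motifs were not searched.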

Additional observations from a re-analysis of the deposited data

Results flagged for a closer look

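Among 36 sets of values (9 genes in 4 treatments), 1 held a steer far from the others by Dixon's test, where chance alone would mark about 1 in 20. PIGR was at 3158 CPM in casein replicate 3, while the other 5 casein steers had 10056 to 14012 CPM, and the gap to the nearest of them was 0.777 of the whole range on the log2 scale. The same steer had a B cell follicle score of 6.72, the second highest of the 22 steers, and an epithelial score of 7.63, the second lowest. Control replicate 5 had a lower epithelial score (7.41), a follicle score of 5.94 and 9485 CPM of PIGR. The part of follicle tissue in the low value of PIGR was not tested.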

How the results depend on the processing

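The number of the 9 genes called between GLP-2 and BSA was 3 in edgeR, 5 with the DESeq2 Wald test, 1 with limma on log2(FPKM + 1) or log2(FPKM + 0.1), 1 to 6 without 1 steer, and 0 with the follicle score as a covariate or without the 4 follicle-rich steers. The number of all genes called was 1881, and 2999, 634 to 3516, 0 and 0 under DESeq2, without 1 steer, with the covariate and without the 4 steers. With the replicate block, edgeR called 2 of the 9 genes and 689 genes, and changed no call at 0.05 of the 9 genes but that of TXNDC5, while MZB1 and IRF4 lost their tendency. In steers of a block the correlation was above 0.1 in 13 of 30 pairs, and in 55 of 151 pairs of different blocks. Between casein + GLP-2 and casein DESeq2 called 2. Of 26 relations between steers 18 passed, and 5 within GLP-2 steers. DERL3 passed under all 6 other settings of normalisation, filter, test, block and unit, TNFRSF17 under 4 and TXNDC5 under 3. No other count of the 9 genes called after adjustment changed by over 1.5 times, and counts at an unadjusted p are given with their contrasts.

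Values near 0 changed sign. For PRDM1 between GLP-2 and BSA the log2 fold change was -0.00092 with DESeq2 size factors, -0.0013 with DESeq2, -0.0043 and -0.0052 with limma at pseudocounts of 1 and 0.1, -0.072 with the covariate and -0.076 without the 4 steers. The covariate also gave 0.095 for MZB1, -0.0023 for XBP1 and 0.45 for IRF4. The block gave 0.046 for TNFRSF17 (casein against water), 0.029 for JCHAIN (casein against control) and 0.049 for PIGR (casein + GLP-2 against GLP-2). Limma gave 0.026 and 0.023 for IRF4 in the interaction. Correlations with JCHAIN turned to 0.090 for XBP1 and 0.27 for PRDM1 in GLP-2 steers and 0.019 for PRDM1 in the 18 steers of low follicle score. Those with the follicle score turned to 0.020 for XBP1 (18 steers), 0.25 and 0.16 for PRDM1 (GLP-2 steers, 18 steers) and 0.32, 0.25 and 0.37 for PIGR (GLP-2 steers, without the 2 farthest, 18 steers). Those with the epithelial score turned to -0.088 and -0.036 for PRDM1 (GLP-2 steers, 18 steers) and 0.012 for PIGR (BSA steers). The causes were not tested.

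Leaving out 1 steer gave a range across 0 for PRDM1 between GLP-2 and BSA (-0.060 to 0.071). Between casein and water it did for JCHAIN (-0.90 to 0.12), XBP1 (-0.17 to 0.0015), TNFRSF17 (-0.96 to 0.81) and PRDM1 (-0.0020 to 0.13). Between casein and control it did for JCHAIN (-0.81 to 0.50), MZB1 (-1.19 to 0.051), XBP1 (-0.20 to 0.034), TNFRSF17 (-0.93 to 1.25), PRDM1 (-0.15 to 0.068) and TXNDC5 (-0.78 to 0.13). Between casein + GLP-2 and GLP-2 it did for XBP1 (-0.18 to 0.11), TNFRSF17 (-1.09 to 0.071) and PIGR (-0.30 to 0.077). In the interaction it did for JCHAIN (-1.39 to 0.32), XBP1 (-0.10 to 0.22), TNFRSF17 (-2.04 to 0.13), IRF4 (-0.49 to 0.43), DERL3 (-0.64 to 0.25) and TXNDC5 (-0.65 to 0.26). None of these results passed the threshold with 22 steers.

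TNFRSF17 had 1 to 261 counts per library, which limits the precision of its fold change.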

Other observations

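Control replicate 2 had the lowest PIGR of the 22 steers (1796 CPM), with JCHAIN at 62.1 CPM, a follicle score of 1.56, an epithelial score of 9.09 and the highest T cell score of the 22 steers (7.47). It also had the highest PRDM1 (71.0 CPM) and XBP1 at 212 CPM. Low PIGR thus occurred in steers with the lowest and with nearly the highest follicle score among those injected with BSA.

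The most abundant gene with a C1-set domain and no symbol, ENSBTAG00000048782 on chromosome 10 (103095506 to 103103769), correlated with JCHAIN at r = -0.614 and had a log2 fold change of 0.46 ± 0.25 SE between GLP-2 and BSA (edgeR, adjusted p = 0.186). Its level was 4150 to 12839 CPM in GLP-2 steers and 2816 to 10603 CPM in BSA steers. A C1-set domain alone therefore did not mark the genes that varied with JCHAIN.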
